A study of Mus musculus with 8 samples.

Results

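A list of 10 regulators of mitochondrial biogenesis was taken by gene symbol, and 9 of the 10 had a probe set on the arrays. They were the coactivators Ppargc1a (PGC-1alpha), Ppargc1b (PGC-1beta) and Pprc1 (PGC-1-related coactivator), the nuclear receptors Esrra and Esrrg, the DNA-binding factors Nrf1 and Gabpa, and the mitochondrial factors Tfam and Tfb1m. Expression of Tfb2m, also listed, is not analysed here. The 9 genes were read among 21212 probe sets on 8 arrays of gastrocnemius and plantaris RNA, each from 1 mouse. The 4 weight bearing (WB) mice kept their hind limbs on the cage floor, and the 4 hind limb unloaded (HU) mice had them raised off it for 5 days. All were wild type C57BL/6J females, 7 weeks old at purchase and housed singly. The comparison asks how the transcripts of these regulators stood in muscle undergoing disuse atrophy. Genes known to mark skeletal muscle fibres (8 measured, among them Ckm, Acta1 and Des) had mean log2 levels between 11.8 and 11.9 on every array, against array medians between 6.28 and 6.33.

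The PGC-1 coactivators bind no DNA themselves. They are recruited by nuclear receptors such as the oestrogen-related receptors (ERR) and by nuclear respiratory factor 1 (NRF-1, encoded by Nrf1) and the GA-binding protein (GABP, alpha subunit Gabpa), and raise transcription of nuclear genes for respiratory subunits and fatty acid oxidation. NRF-1 and GABP also act on the genes of TFAM, which packages mitochondrial DNA and starts its transcription, and of TFB1M and TFB2M, both related to rRNA methyltransferases. In muscle, Ppargc1a is known to rise with contraction and to be most abundant in oxidative fibres.

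Upstream sequences of members are shown because NRF-1 and GABP sites are the classical link between the members themselves. RefSeq promoter windows on GRCm38.p6 (250 bases before to 50 after a transcription start) were found for 9 members, in 13 windows, and that of Ppargc1b was not used here. Both strands were searched for TCAAGGTCA and its shorter part AAGGTCA (ERR), GCGCATGC (NRF-1), CCGGAAG (GABP), TGACGTCA (CREB) and GGGACTTTC (NF-kB). The NRF-1 letters were present in 2 of the 13 windows, those of Esrra and Tfb2m, against 2.71% of all 32851 windows. The GABP letters were present in 2 of the 13, those of Tfam and Gabpa itself, against 8.86% of all windows. The other motifs matched no member window, where 0.423% (TCAAGGTCA), 4.72% (AAGGTCA), 1.79% (TGACGTCA) and 0.353% (GGGACTTTC) of all windows had a match. The 250 bases before the start are given 5′ to 3′ on the gene's strand, with a match in capitals, for the 3 members measured here that had one and for Tfb1m, the member with the largest change. They lie at chr19:6921809-6922058 (minus strand, Esrra), chr10:71238045-71238294 (minus strand, Tfam), chr16:84834874-84835123 (plus strand, Gabpa) and chr17:3557756-3558005 (minus strand, Tfb1m).
Esrra: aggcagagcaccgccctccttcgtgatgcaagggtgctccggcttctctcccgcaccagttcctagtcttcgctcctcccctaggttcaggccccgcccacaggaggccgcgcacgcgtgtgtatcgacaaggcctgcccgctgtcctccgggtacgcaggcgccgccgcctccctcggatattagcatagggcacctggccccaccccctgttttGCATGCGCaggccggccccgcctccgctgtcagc
Tfam: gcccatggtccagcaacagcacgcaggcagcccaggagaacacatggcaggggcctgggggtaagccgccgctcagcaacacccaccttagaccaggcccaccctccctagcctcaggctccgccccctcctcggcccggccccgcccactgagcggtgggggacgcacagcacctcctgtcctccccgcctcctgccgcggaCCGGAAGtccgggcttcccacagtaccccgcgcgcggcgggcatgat
Gabpa: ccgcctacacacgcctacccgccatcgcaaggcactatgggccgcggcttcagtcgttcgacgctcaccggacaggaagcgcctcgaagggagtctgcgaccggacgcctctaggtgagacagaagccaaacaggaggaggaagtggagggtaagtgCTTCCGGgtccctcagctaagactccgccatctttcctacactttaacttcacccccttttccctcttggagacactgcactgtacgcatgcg
Tfb1m: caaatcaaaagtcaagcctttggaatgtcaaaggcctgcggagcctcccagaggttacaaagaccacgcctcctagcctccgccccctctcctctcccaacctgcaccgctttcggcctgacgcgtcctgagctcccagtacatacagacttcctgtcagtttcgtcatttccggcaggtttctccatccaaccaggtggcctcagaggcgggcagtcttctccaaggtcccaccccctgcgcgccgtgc
The Esrra match begins 34 bases before the annotated start, the Tfam match 47 bases and the Gabpa match 93 bases before it. A match is a stretch of letters and not a measured site.

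In unloaded muscle 5 of the 9 measured regulators were lower and 1 was higher at an adjusted p under 0.05 (limma with Benjamini-Hochberg adjustment over all probe sets), and 3 were not called. Among all probe sets 11.0% were lower, 12.8% higher and 23.8% called in either direction. The 9 members lay between the percentiles 57.6 and 91.7 of mean level, so these shares are taken over mostly dimmer probe sets. With the dimmest 25% left out, 2719 probe sets were called higher and 2480 lower out of fewer tested, so the share called was larger among brighter ones. The 5 that fell were Tfb1m, Ppargc1b, Ppargc1a, Esrrg and Esrra, and the 1 that rose was Nrf1. The WB and HU arrays did not overlap for 6 of the 9 members, the same 6 that were called, against 27.5% of all probe sets. The median log2 difference of the 9 members (HU minus WB) was -0.25, and that of all probe sets 0.04. The changes were modest in size, from 1.16-fold to 1.51-fold, and the median fall of the 5 lowered members (1.28-fold) lay near that of all lowered probe sets (1.25-fold). By the methods' t-test, run with settings that the methods leave unstated (unequal variances and Benjamini-Hochberg adjustment), Ppargc1a and Tfb1m were called and the other 4 were not. Since these are bulk tissue samples, fewer cells of a type and less RNA per cell cannot be told apart.

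**Figure D1:**
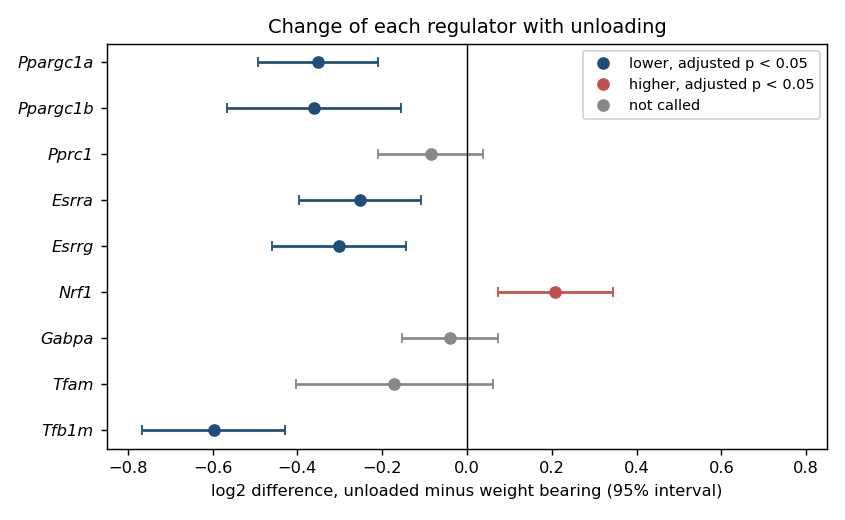
Log2 difference (unloaded minus weight bearing, x axis) of each measured regulator, with its 95% interval from limma (4 arrays per group). Tfb1m lies lowest at -0.60, Nrf1 is the member whose interval lies above 0, and the intervals of Pprc1, Gabpa and Tfam include 0.

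Ppargc1a, the coactivator most closely tied to oxidative muscle, was lower in every unloaded array than in every weight bearing array. Its log2 levels were 9.33, 9.19, 9.44 and 9.29 in HU replicates 1 to 4 and 9.69, 9.61, 9.76 and 9.59 in WB replicates 1 to 4. The highest unloaded value lay below the lowest weight bearing value. The difference was -0.35 ± 0.06 (SE), a 1.28-fold fall (95% interval -0.49 to -0.21, limma adjusted p = 0.00356). It kept its call in all 14 alternative settings, with differences between -0.39 and -0.31. Of the 2324 probe sets that were lower, 1030 had a larger fall than Ppargc1a. Alternative transcripts of the gene were not told apart by its single probe set.

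Ppargc1b, a second coactivator of oxidative metabolism, fell by a like amount with more spread among controls. It read 7.32, 7.43, 7.51 and 7.55 in the HU arrays and 7.71, 7.60, 8.03 and 7.91 in the WB arrays. All 4 unloaded values lay below all 4 weight bearing values, of which replicates 3 and 4 stood highest. The difference was -0.36 ± 0.09 (SE), also 1.28-fold (95% interval -0.57 to -0.16, limma adjusted p = 0.0185, methods' t-test adjusted p = 0.103).

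Pprc1, the third coactivator of the family, known for its response to growth signals in dividing cells, was not called. Its log2 levels were 6.81, 6.78, 6.77 and 6.65 in HU and 6.92, 6.86, 6.76 and 6.82 in WB muscle. The groups overlapped, with unloaded replicate 4 lowest. The difference of -0.09 had a 95% interval from -0.21 to 0.04 (limma adjusted p = 0.283).

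Esrra and Esrrg, which encode orphan nuclear receptors that carry much of the PGC-1 effect on respiratory genes, both fell. Esrra (ERR alpha) read 7.48, 7.67, 7.68 and 7.70 in the HU arrays and 7.98, 7.88, 7.90 and 7.78 in the WB arrays. The groups were separate, and unloaded replicate 1 stood well below the other 3. The difference was -0.25 ± 0.06 (SE), a 1.19-fold fall (95% interval -0.40 to -0.11, limma adjusted p = 0.0191). Without weight bearing replicate 1 it was -0.22 and no longer called (limma adjusted p = 0.0546), and the methods' t-test gave an adjusted p of 0.0616.

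Esrrg (ERR gamma), which in muscle is associated with oxidative fibres, read 7.27, 7.25, 7.08 and 7.25 in HU and 7.47, 7.38, 7.54 and 7.68 in WB muscle. Again no unloaded array reached the lowest weight bearing array, and unloaded replicate 3 was the low one. The difference was -0.30 ± 0.07 (SE), a 1.23-fold fall (95% interval -0.46 to -0.14, limma adjusted p = 0.0127, methods' t-test adjusted p = 0.0614). It was called without each array in turn.

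Neither DNA-binding factor of nuclear genes for mitochondria was called lower, and Nrf1 was called higher. Nrf1, whose product NRF-1 binds promoters of cytochrome c and many respiratory subunits, read 7.39, 7.38, 7.32 and 7.27 in the HU arrays and 7.02, 7.07, 7.17 and 7.26 in the WB arrays. All unloaded values lay above all weight bearing values, but the nearest of them, unloaded replicate 4 (7.274) and weight bearing replicate 4 (7.264), were almost equal. The difference was 0.21 ± 0.06 (SE), a 1.16-fold rise (95% interval 0.07 to 0.34, limma adjusted p = 0.0333). The call was lost without unloaded replicate 1 (adjusted p = 0.0676), 2 (0.0828) or 3 (0.0617), without weight bearing replicate 1 (0.0875) or 2 (0.0832), with the replicate number as a block (0.0720), and by the methods' t-test (0.0963). Its direction held in all 14 alternative settings, with differences between 0.17 and 0.25.

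Gabpa, the DNA-binding subunit of GABP, was measured with a small spread and was not called. It read 8.46, 8.33, 8.43 and 8.38 in HU and 8.52, 8.43, 8.44 and 8.37 in WB muscle, and the groups overlapped over most of their range. The difference of -0.04 had a 95% interval from -0.15 to 0.07 (limma adjusted p = 0.590).

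Of the factors that act on mitochondrial DNA and its ribosome, Tfb1m had the largest change among the 9 members. The TFB1M protein methylates the small ribosomal RNA of mitochondria. Tfb1m read 8.08, 7.97, 7.84 and 7.75 in the HU arrays and 8.60, 8.41, 8.54 and 8.47 in the WB arrays. The lowest weight bearing array stood above the highest unloaded array by more than the SD of either group (0.15 in HU and 0.08 in WB muscle). The difference was -0.60 ± 0.08 (SE), a 1.51-fold fall (95% interval -0.77 to -0.43, limma adjusted p = 4.8e-04). Of the 2324 lowered probe sets 290 had a larger fall, and Tfb1m was called in all 14 alternative settings, with differences between -0.65 and -0.54.

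Tfam, which coats and bends mitochondrial DNA, was not called. It read 7.32, 7.15, 7.39 and 7.20 in HU and 7.41, 7.39, 7.74 and 7.20 in WB muscle. Weight bearing replicate 3 stood highest and weight bearing replicate 4 lay among the unloaded arrays. The difference of -0.17 had a wide 95% interval, from -0.40 to 0.06 (limma adjusted p = 0.255). It was -0.07 without weight bearing replicate 3 and -0.25 without weight bearing replicate 4, and was called in neither setting.

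**Figure D2:**
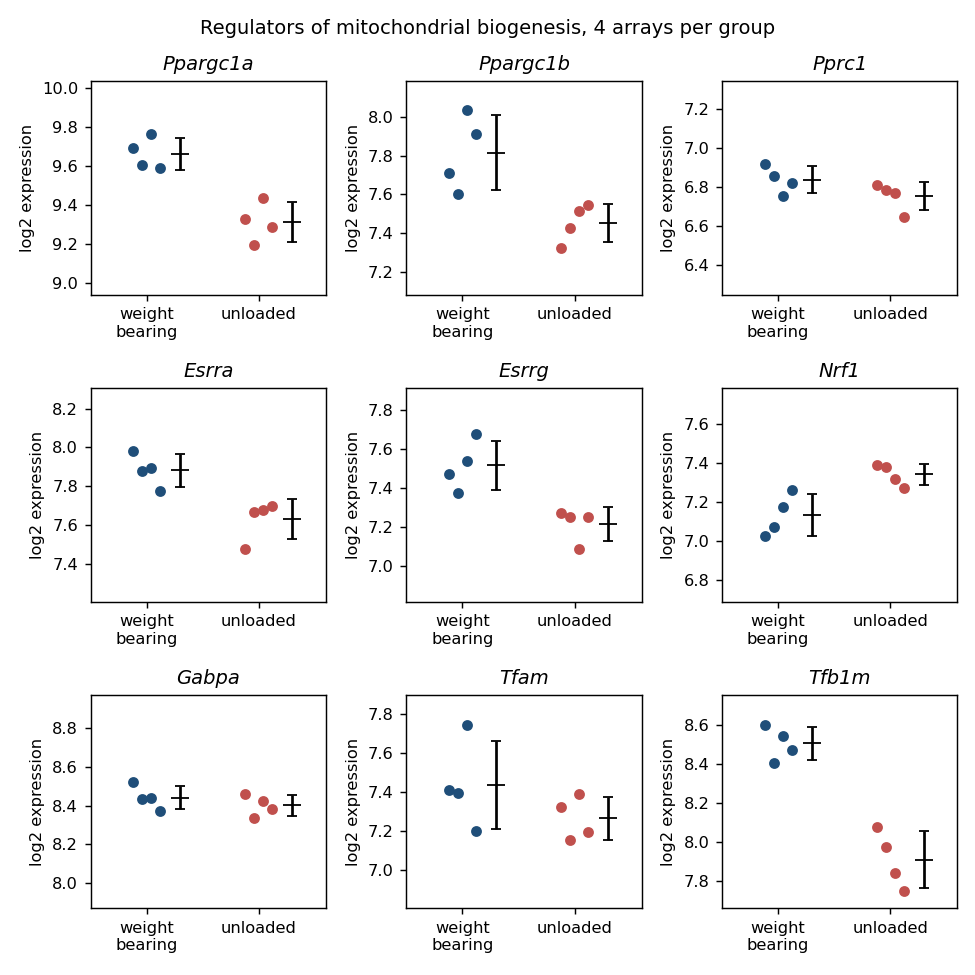
Log2 expression (y axis, the same span of 1.1 in every panel) of the 9 measured regulators on each array, with the mean and SD of the 4 arrays beside the points. Unloaded and weight bearing points are apart for Ppargc1a, Ppargc1b, Esrra, Esrrg and Tfb1m (unloaded lower) and narrowly for Nrf1 (unloaded higher). Levels of different genes are not on a common scale.

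Related members were then compared for the size of their change, from the log2 difference between both genes on each array (exact two-sided permutation test over the 8 arrays, 5 pairs, smallest possible p = 0.0286). At least 3 of the 5 pairs would have had to reach that smallest p for any to pass after Benjamini-Hochberg adjustment, so the adjusted values say little, and the differences are given as sizes. The change of Ppargc1a minus that of Pprc1 was -0.27, and the difference between both genes was smaller in all 4 unloaded arrays (2.41 to 2.67) than in all 4 weight bearing arrays (2.75 to 3.01) (exact p = 0.0286, adjusted p = 0.143). For Nrf1 minus Gabpa it was 0.25 (exact p = 0.0571, adjusted p = 0.143), and for Ppargc1b minus Pprc1 -0.28 (exact p = 0.143, adjusted p = 0.238). For Ppargc1a minus Ppargc1b it was 0.01 (exact p = 0.800, adjusted p = 0.800), and for Esrra minus Esrrg 0.05 (exact p = 0.629, adjusted p = 0.786). For Tfb1m and Tfb2m no comparison was made.

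Genes known to act on Ppargc1a transcription or on the PGC-1alpha protein moved in both directions. Of 32 measured, 7 were higher and 6 lower by limma (40.6% called, against 23.8% of all probe sets, median log2 difference -0.01 against 0.04). Their mean log2 level lay between 9.13 and 9.21 over the arrays, against array medians of 6.28 to 6.33. The 23.8% is thus taken over mostly dimmer probe sets. Camk2b, a calcium/calmodulin-dependent kinase subunit, rose 1.34-fold (limma adjusted p = 2.9e-04), while Camk2d fell 1.21-fold. Prkag2, a regulatory subunit of the AMP-activated kinase, fell 1.47-fold (adjusted p = 0.00152), and Mapk14, the p38 alpha kinase, 1.33-fold (adjusted p = 0.00134). Named after their values were seen, the deacetylase Sirt1 rose 1.19-fold, Prkaa2, a catalytic subunit of the AMP-activated kinase, 1.17-fold, and the acetyltransferase Kat2a 1.13-fold. Also named afterwards, Prkab2 fell 1.19-fold, Mef2c 1.13-fold and Camk2a 1.11-fold, while Crtc2 rose 1.19-fold, Gsk3b 1.17-fold and Stk11 1.14-fold. The count of higher genes was 3 by the methods' t-test and without weight bearing replicate 1 or 2, and 4 without unloaded replicate 3. The count of lower genes was 3 without unloaded replicate 2.

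Among 24 measured partners and co-regulators, 8 were higher and 3 lower (45.8% called, against 23.8% of all probe sets, median log2 difference 0.05). The mean log2 level of this list (8.36 to 8.45 over the arrays) also lay above the array medians, so the 23.8% again covers mostly dimmer probe sets. Perm1, a muscle protein induced by PGC-1 and ERR, fell 1.57-fold (limma adjusted p = 3.7e-04), Sirt3, the mitochondrial deacetylase, 1.37-fold (adjusted p = 3.0e-04), and Ppara, a receptor for fatty acids, 1.35-fold (adjusted p = 0.00412). Foxo1, a transcription factor of the atrophy programme, rose 1.57-fold (adjusted p = 2.2e-04). Nrip1, a corepressor of ERR and PPAR receptors named after its values were seen, rose 1.26-fold (adjusted p = 0.0111). Also named afterwards, the coactivators Crebbp and Ncoa3 rose 1.17-fold each, Rxra 1.15-fold, Foxo3 1.20-fold and Myc, whose HU and WB arrays overlapped, 1.26-fold. The GABP partner subunit Gabpb2, also named afterwards, rose 1.13-fold, while Gabpb1, likewise, had a log2 difference of -0.10 and was not called.

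Of 35 measured genes of mitochondrial DNA maintenance and expression, 5 were higher and 8 lower (37.1% called, against 23.8% of all probe sets, median log2 difference -0.01). The mean log2 level of this list, 7.54 to 7.64 over the arrays, lay above the array medians as well, so the same limit holds. Slc25a33, a mitochondrial pyrimidine nucleotide carrier, fell 1.43-fold (limma adjusted p = 0.00338), Mterf2, a mitochondrial transcription termination factor family member, 1.36-fold (0.0202), and Primpol, a primase-polymerase, 1.34-fold (0.00261), while Mterf1a rose 1.40-fold (0.0215). Polrmt, the RNA polymerase that TFAM and TFB2M bring to mitochondrial promoters, rose 1.21-fold (adjusted p = 0.00492), and the other 3 that rose were Elac2, Tk2 and Mterf1b. Lrpprc and Slirp, which together stabilise mitochondrial mRNA, fell 1.29-fold and 1.16-fold (adjusted p = 4.4e-04 and 0.0366). Polrmt, Elac2, Tk2, Mterf1b, Lrpprc and Slirp were named after their values were seen. Mterf1a and Mterf1b are near-identical copies, so their probe sets may share signal, and Mterf1b was dim (mean log2 level 2.67, percentile 1.91 of all probe sets). Mterf2 (percentile 40.3), Mterf1a (40.2) and Primpol (31.1) also lay below the median level. For Mterf2 the HU and WB arrays overlapped. The count of higher genes was 3 without weight bearing replicate 3, and that of lower genes 5 without unloaded replicate 4 or weight bearing replicate 1.

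Of 38 measured targets of PGC-1alpha and ERR in muscle, 25 were lower and 0 higher by limma (65.8% called lower, against 11.0% of all probe sets, median log2 difference -0.22), and 12 of the 25 fell by more than Ppargc1a itself. At an unadjusted p under 0.05 limma had 28 lower and 1 higher (Mfn2, named after its value was seen, a fusion protein of the outer mitochondrial membrane, log2 difference 0.10), and the methods' t-test called 20 lower and 1 higher. The largest falls were those of Fabp3, which carries fatty acids in the cytosol of muscle (2.79-fold), and Ucp3, an uncoupling protein (2.55-fold). Ckmt2, mitochondrial creatine kinase, fell 2.02-fold, and Hadhb, a subunit of the trifunctional protein of beta-oxidation, 1.74-fold. Among them the highest limma adjusted p was 0.00157. Hadhb was dimmer and more spread (mean log2 level 6.68, SD 0.28 in HU) than Hadha (11.2, SD 0.03 in HU). Hadha, named after its value was seen, fell 1.29-fold. Mean log2 levels over the 38 targets lay between 10.06 and 10.12 in the 4 HU arrays and between 10.37 and 10.48 in the 4 WB arrays. Array medians lay between 6.28 and 6.33, so the 11.0% is taken over probe sets mostly dimmer than the mean of these targets. The list was also chosen with earlier results of these data known.

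Of 25 measured genes classically bound by NRF-1 or GABP, 13 were lower and 0 higher by limma (52.0% called lower, against 11.0% of all probe sets, median log2 difference -0.17), beside the higher level of Nrf1 and the uncalled Gabpa. At an unadjusted p under 0.05 limma had 14 lower and 0 higher, and the methods' t-test called 8 lower and 1 higher. Cycs, cytochrome c, fell 1.57-fold (limma adjusted p = 0.00855), and Alas1, the first enzyme of heme synthesis, 1.47-fold (3.4e-05). Sdhb, a subunit of succinate dehydrogenase, fell 1.35-fold (limma adjusted p = 5.5e-04), and Ndufs8, a subunit of complex I, 1.29-fold (9.0e-04). The Cycs probe set lay below the median level (mean log2 level 5.68, percentile 39.9 of all probe sets). Its SD was 0.33 in HU and 0.13 in WB muscle. Cycs and Atp5b are on both target lists, and Perm1 and Sirt3 on the list of partners as well as that of PGC-1alpha and ERR targets, so these counts are not separate. The NRF-1 and GABP list, too, was chosen with earlier results known. Its mean log2 level (10.42 to 10.66 over the arrays) lay above the array medians (6.28 to 6.33). Whether the change of any regulator bears on that of its targets was not tested.

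**Figure D3:**
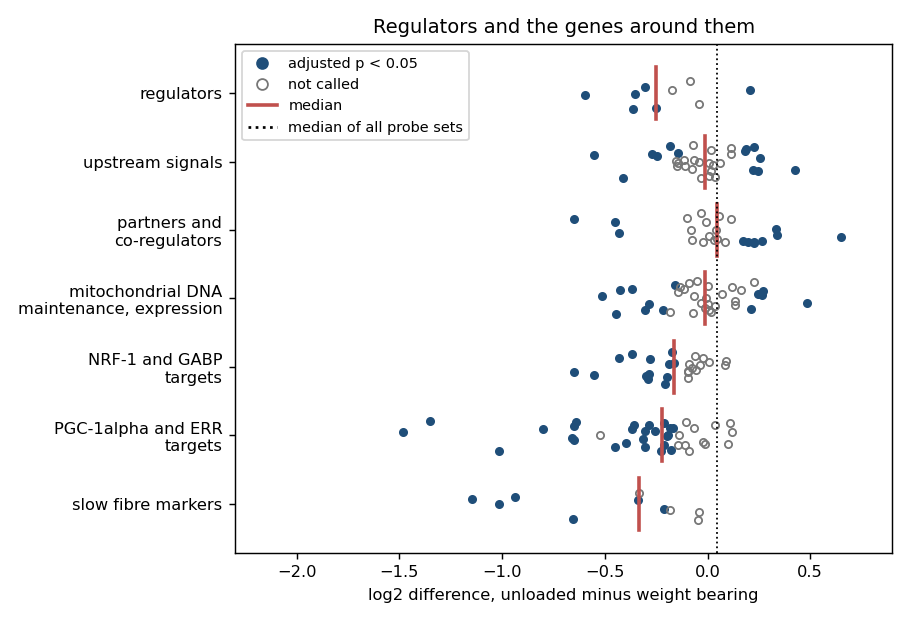
Log2 difference (unloaded minus weight bearing, x axis) of each measured gene, 1 point per gene, for the 9 regulators, 5 lists of genes around them and markers of slow fibres. Both target lists lie mostly below 0, with medians of -0.17 and -0.22, while upstream signals, partners and genes of mitochondrial DNA spread to both sides.

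Markers of fibre type and of other cells were counted in the same fit, where 23.8% of all probe sets were called. Of 10 markers of slow fibres, in which Ppargc1a is known to be abundant, 6 were lower, with Casq2 (2.21-fold), Myl2 (2.02-fold), Myl3 (1.92-fold) and Tnni1 (1.58-fold) falling most, and 1 of the 6, Mb, is also on the list of PGC-1alpha and ERR targets. Their mean log2 level lay between 9.88 and 10.4 in HU and between 10.5 and 10.6 in WB muscle. Myh7, Tnnc1, Tpm3 and Atp2a2, named after their values were seen, were not called (log2 differences -0.18, -0.34, -0.05 and -0.04). The SD was larger in HU than in WB muscle for Myl2 (0.51 against 0.09), Myl3 (0.41 against 0.04) and Tnni1 (0.34 against 0.08). For Casq2 it was 0.22 in both. Of 11 markers of fast fibres 3 were lower (Myh2, of fast oxidative fibres, 1.73-fold, Casq1 and Pvalb) and Mylk2 was higher. Of 8 fibroblast markers 5 were lower (mean log2 level 9.12 to 9.29 in HU, 10.1 to 10.4 in WB). Col1a1 (5.58-fold), Col1a2 (4.06-fold), Col3a1 (2.37-fold) and Lum (2.24-fold) fell most. Pdgfra, Dcn and Gsn, picked for mention with their values already known, were not called (log2 differences -0.11, -0.02 and -0.11). The mean of this list therefore does not describe each of its markers. Macrophage markers had 6 of 7 lower (7.26 to 7.51 in HU, 7.72 to 8.01 in WB). Endothelial markers had 2 of 8 lower, Kdr and Emcn, and pericyte and smooth muscle markers 1 of 8, Cspg4, shares (25% and 12.5%) near or below that of all probe sets. Satellite cell markers had 3 of 8 higher (Cdh15, Itga7 and Myf5) and Vcam1 lower, and of the 8 fibre identity markers Des was higher and Acta1 lower (25%). None of 7 adipocyte or 5 Schwann cell markers was called by limma, and 0 of either passed an unadjusted p of 0.05. Cidea and Lep had the smallest p among the former (log2 differences 0.21 and 0.81), and S100b and Sox10 among the latter (-0.14 and 0.06). Ucp1, named after its value was seen, marks brown fat, where Ppargc1a is also abundant. Its log2 difference was 0.55 (limma adjusted p = 0.349), with an SD of 1.06 in HU and 0.09 in WB muscle. The Ucp1 probe set was dim (percentile 21.0 of mean level). Mean levels of the adipocyte markers overlapped between the groups (6.55 to 7.77 in HU, 6.45 to 7.12 in WB). The part of these markers in the changes of the regulators was not tested.

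Within groups the deviations of the regulators correlated in both directions. Deviations from the group means were compared over the 8 arrays for the 36 pairs of members, as a description of arrays that share 1 normalization. Pearson's r was over 0.5 in 4 pairs, under -0.5 in 4 and between these in the other 28. The share of such values among pairs of other probe sets was not computed, so these counts are not read as links between members. The pairs named next were picked from the extremes of the 36, so the size of their r follows in part from the choice. Ppargc1a and Tfam deviated together (r = 0.84, and 0.92 without 2 arrays), as did Esrrg and Nrf1 (r = 0.72 and 0.86). The 2 arrays left out were those farthest from the median deviation of the gene named first in the pair. They can therefore differ between pairs and depend on which gene is named first. Ppargc1b and Pprc1 deviated in opposite directions (r = -0.76 and -0.81), as did Esrra and Nrf1 (r = -0.73 and -0.54). For Nrf1 with Gabpa (r = -0.56) and Esrra with Esrrg (r = -0.51) the sign turned without the 2 farthest arrays (0.09 and 0.25). Among 9618 other named probe sets in the upper 50% by mean level, the 5 whose deviations were most like those of Ppargc1a were Chchd1 (r = 0.98), Mrpl51 (0.98), Timm9 (0.98), Cfap298 (0.97) and Gm5177 (0.97). They were picked as the highest of 9618 over 8 arrays, so the size of r follows in part from the choice. Of the 5, Chchd1 and Mrpl51 were lower in unloaded muscle, by log2 differences of -0.28 and -0.63, Cfap298 was higher by 0.23, and Timm9 (0.13) and Gm5177 were not called. By the log2 levels, which hold the same deviations, the 5 most alike were Chchd1, Mrpl51, Pole4, Ndufv2 and Polr2m, and no r is given there, since those levels fall into the 2 groups.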

How the data were processed

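Per the labels and the study's methods, total RNA of gastrocnemius and plantaris from 8 mice (4 hind limb unloaded, 4 weight bearing) was hybridised to Affymetrix Mouse Gene 1.0 ST arrays, 1 per sample. The authors ran RMA with a custom probe set definition (its release and genome build were stated in no source read here) and deposited log2 expression values for 21212 probe sets, which were used without rescaling or filtering. All 8 columns were used and 0 left out. Array medians lay between 6.28 and 6.33, arrays of 1 group correlated with r of 0.996 to 0.997, and no arrays were identical. The number of arrays limits the precision.

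Genes were named from the platform annotation (18786 probe sets with 1 symbol, 6 with several, 2420 with none). In R 4.3.3, a linear model with moderated variance (limma 3.58.1, two-sided) set unloaded against weight bearing arrays, with Benjamini-Hochberg adjustment over all probe sets, called at an adjusted p under 0.05. The fit was tested on simulated data. Values are differences of mean log2 values, and a fold is 2 to that power. Intervals are at 95%. Pairs of members were compared by exact permutation. The members and gene lists were chosen with earlier results of these data known. The genes named were all members, from each list at most 4 called genes by size of change (if none was called, the 2 of lowest p), and those most like Ppargc1a. Exceptions are marked in the text. Genes of a list without a named probe set are not analysed here.

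Alternatives were the methods' t-test (the methods state a parametric t-test with p and q thresholds, and the unequal variances and Benjamini-Hochberg adjustment were chosen here, so it need not give the study's calls), an intensity trend with robust variance, quantile normalization, common array medians, leaving out the dimmest 25% of probe sets, the replicate number as a block, and each array left out in turn. Python 3.11.15 with pandas 2.3.3 and numpy 2.4.6 was used for the promoter search.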

Additional observations from a re-analysis of the deposited data

Results flagged for a closer look

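Single arrays stood apart from the other 3 of their group for 2 of the 18 combinations of a member and a group, by a gap above Dixon's 95% critical value for 4 samples, where chance gives about 1 in 20. Esrra in unloaded replicate 1 (7.478) lay below the other unloaded arrays by 0.866 of the range. Esrrg in unloaded replicate 3 (7.084) lay below them by 0.891 of the range. Both values lie in the direction of the fall, and without the array in question the differences were -0.20 for Esrra and -0.26 for Esrrg, both still called.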

How the results depend on the processing

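Ppargc1a and Tfb1m were called lower, and Pprc1, Gabpa and Tfam were not called, in all 14 settings, with no member's difference changing sign. By the methods' t-test 0 members were higher and 2 lower, and the calls of Ppargc1b (-0.36, adjusted p = 0.103), Esrra (-0.25, 0.0616), Esrrg (-0.30, 0.0614) and Nrf1 (0.21, 0.0963) were lost. The same test called 1393 probe sets higher and 1374 lower, where limma called 2715 and 2324. It called 3 upstream genes higher, 5 partners higher, 3 genes of mitochondrial DNA higher and 4 lower, 8 targets of NRF-1 and GABP lower and 1 higher, and 1 target of PGC-1alpha and ERR higher. With an intensity trend 1 target was higher in each target list, as was 1 PGC-1alpha and ERR target after quantile normalization. With the replicate number as a block 0 members were higher (Nrf1 0.21, limma adjusted p = 0.0720). Among the blocked fits of the member differences this was the only call that changed. Same-numbered arrays had correlations of their deviations of 0.02, 0.04, 0.12 and 0.10, so they were read as sharing only a number, although 3 of 4 unloaded arrays deviated most like the weight bearing array of their own number. With 1 array left out, 0 to 1 members were higher, Esrra ranged from -0.29 to -0.20 and Nrf1 from 0.17 to 0.25. All probe sets called higher ranged from 1802 (without unloaded replicate 3) to 2852, upstream genes from 3 to 6 higher and 3 to 6 lower, and genes of mitochondrial DNA from 3 to 5 higher and 5 to 8 lower. The difference in change of Ppargc1a and Ppargc1b, which passed no test, was -0.0047 after quantile normalization and ranged from -0.046 to 0.062 with 1 array left out, and that of Esrra and Esrrg from -0.039 to 0.12. Paired by number, the exact test of pairs cannot pass the threshold, so it says nothing on stability. With 1 array left out it could pass only if several pairs reached the smallest p together, as in the main test. No pair passed there, so it says little on stability. The cause of these differences was not tested. Quantile normalization moved the median of all probe sets from 0.04 to 0.02. Expression near background limits dim genes, and the 9 members lay between the percentiles 57.6 and 91.7 of mean level.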
